A study of Mus musculus with 10 samples.

Results

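The regions described here are genic H3K27me3 peaks found by CUT&RUN and not by ChIP-seq in mouse embryonic stem cells. They are the 24715 peaks of the deposited CUT&RUN list, 37.3% of its 66242, that shared no base with any of the 41159 ChIP-seq peaks, were under 5000 bp wide and overlapped the span of at least 1 of 32968 singly placed genes (all exons on 1 chromosome and strand). The CUT&RUN list came from 1 control sample taken 12 h after release from G1, and the ChIP-seq list from 1 sample without auxin taken at 6 h. The labels call the CUT&RUN sample Control and the ChIP-seq sample NoAuxin. Assay, time and any difference behind these labels therefore cannot be told apart, and no chromatin value here has a replicate check. RNA was counted in 2 libraries with auxin and 2 libraries without auxin, all at 12 h. Every sample was made from E14 cells with a degradable NPM1 (NPM1AID), grown with LIF, 1 µM PD0325901 (a MEK1/2 inhibitor) and 3 µM CHIR99021 (a GSK3 inhibitor) and synchronised in G1. Auxin is used to send the degron-tagged histone chaperone NPM1 to the proteasome. The libraries with auxin are thus those of cells treated to lose NPM1, whose amount was not measured here. No sample is of cells that were given auxin but lack the degron. Effects of auxin itself and of NPM1 loss therefore cannot be told apart. The deposited column names point to a line numbered as a clone, so the values may be those of 1 clone.

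H3K27me3 is the trimethyl mark that Polycomb repressive complex 2 places on histone H3, and in embryonic stem cells it is known for covering CpG-rich promoters of silent developmental genes. In ChIP-seq, fixed chromatin is sheared and pulled down with an antibody, whereas in CUT&RUN the antibody tethers a nuclease to unfixed nuclei and only the DNA that it cuts free is sequenced. The same antibody product was used in both assays, per the labels.

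Few of the regions lay over a promoter, and the promoters among them spanned CpG-poor and CpG-rich sequence. 3 members that carry this contrast are shown, chosen because their genes changed with auxin and because the whole RefSeq promoter window (GRCm38.p6, the build the files call mm10) lay inside a member peak. Each line gives the 250 bases before the RefSeq start, 5′ to 3′ on the strand of the gene, with every CpG in capitals.
Trpm6, chr19:18749480-18749729, plus strand: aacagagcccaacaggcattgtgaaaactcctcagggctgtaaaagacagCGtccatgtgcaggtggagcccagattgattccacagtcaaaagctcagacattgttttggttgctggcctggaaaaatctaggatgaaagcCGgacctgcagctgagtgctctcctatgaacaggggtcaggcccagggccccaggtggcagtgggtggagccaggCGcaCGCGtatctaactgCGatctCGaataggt
Hhip, chr8:80058009-80058258, minus strand: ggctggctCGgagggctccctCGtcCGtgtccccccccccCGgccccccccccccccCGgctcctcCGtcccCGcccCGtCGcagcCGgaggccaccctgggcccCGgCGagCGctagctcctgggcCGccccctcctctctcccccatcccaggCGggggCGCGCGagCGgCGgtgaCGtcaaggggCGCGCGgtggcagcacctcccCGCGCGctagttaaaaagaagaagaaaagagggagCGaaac
Rasgrf2, chr13:92131829-92132078, minus strand: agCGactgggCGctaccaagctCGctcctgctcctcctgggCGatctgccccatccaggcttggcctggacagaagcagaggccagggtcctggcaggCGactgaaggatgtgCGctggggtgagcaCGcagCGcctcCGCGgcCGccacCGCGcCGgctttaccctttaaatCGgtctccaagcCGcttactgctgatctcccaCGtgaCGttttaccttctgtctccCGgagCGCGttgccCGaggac

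The 250 bases shown held 7 CpGs at 54.4% G and C for Trpm6, 28 CpGs at 76.0% for Hhip, and 22 CpGs at 65.2% for Rasgrf2. The counts over RefSeq windows below are for whole windows, which are longer. Trpm6 encodes a magnesium channel kinase, Hhip a membrane protein that sequesters Hedgehog ligands, and Rasgrf2 an exchange factor for Ras and Rac. Their member peaks were 1518 bp (chr19:18749332-18750849), 1959 bp (chr8:80057048-80059006) and 1674 bp wide (chr13:92131211-92132884). Over all 32851 windows of the RefSeq table, each from 250 bases before to 50 after a start, 987 overlapped a member peak. Of these, 33.6% held 10 or more CpGs (95% Wilson interval 30.8 to 36.6%), against 41.8% (39.3 to 44.4%) of the 1408 windows under a CUT&RUN peak shared with ChIP-seq and no member, and 44.4% (43.8 to 44.9%) of the 29943 windows under no CUT&RUN peak. The median count was 7 CpGs in each of these sets, so the sets differed in the CpG-rich tail. The upper quartile was 12 CpGs under member peaks, against 15 under shared peaks and 21 under no CUT&RUN peak. Windows of neighbouring or alternative starts can overlap, so these intervals cover counting error only and count some sequence more than once.

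Member peaks were narrow and stood close to the caller's threshold. Their median width was 760 bp (quartiles 420 and 1279 bp), against 1702 bp (944 and 2838 bp) for the 7330 genic CUT&RUN peaks under 5000 bp that overlapped a ChIP-seq peak and 711 bp (398 and 1178 bp) for the 26605 CUT&RUN-only peaks outside genes. The authors' fold enrichment had a median of 3.02 in members, 3.16 in shared genic peaks and 3.00 in intergenic CUT&RUN-only peaks. The −log10 q of the authors' caller reached 2 in 13.1% of members (95% Wilson interval 12.7 to 13.5%), against 29.7% of shared genic peaks (28.6 to 30.7%). By width and strength the members thus resembled the CUT&RUN-only peaks between genes more than the shared peaks within genes. Width and overlap were used to choose the members, so these values describe the choice and were not tested.

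**Figure D1:**
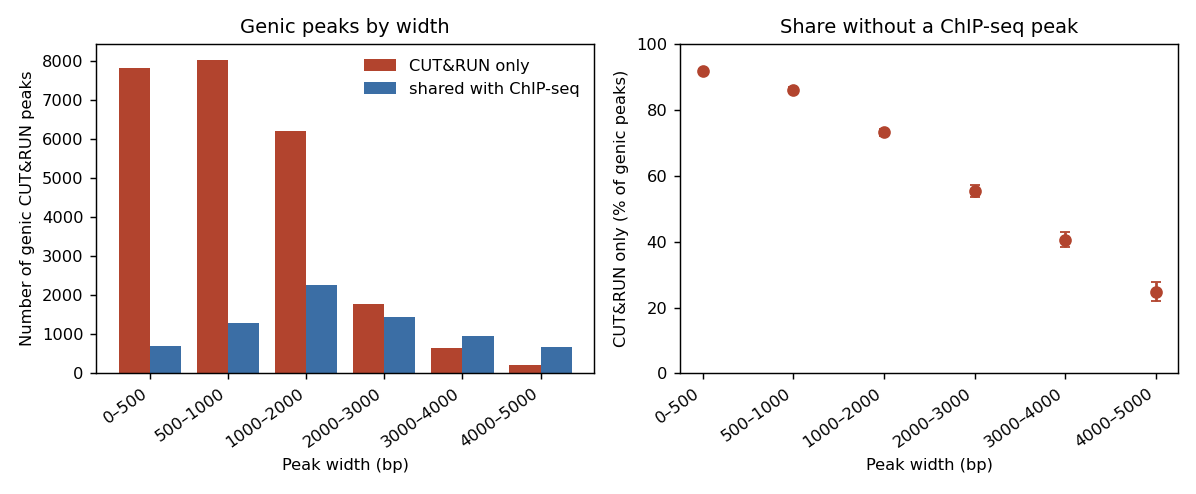
Left, number of genic CUT&RUN peaks by width in bp, for CUT&RUN-only peaks (red, left of each pair) and peaks shared with ChIP-seq (blue). Right, CUT&RUN-only peaks as a percentage of genic peaks of that width, with 95% Wilson intervals. The share was 91.9% under 500 bp and 24.8% at 4000 to 5000 bp.

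Among genic peaks under 5000 bp, the share without a ChIP-seq peak fell with each step of width, being 91.9% under 500 bp, 86.2% at 500 to 1000 bp, 73.2% at 1000 to 2000 bp, 55.4% at 2000 to 3000 bp, 40.6% at 3000 to 4000 bp and 24.8% at 4000 to 5000 bp. It fell likewise with the −log10 q, being 86.3% at 1 to 1.5, 70.6% at 1.5 to 2, 60.6% at 2 to 3 and 51.9% (47.5 to 56.2%) at 3 to 5. Members were thus still the larger part of genic peaks with a −log10 q of 2 to 3. At the width limit, the widest member was the 4986 bp peak over 5330417C22Rik, and the narrowest CUT&RUN-only genic peaks left out by it were 5013 bp wide, over Hrasls and 0610012H03Rik. At the overlap limit, members over Fam78b, Edar and Gria1 abutted a ChIP-seq peak, with a gap of 0 bp. Peaks over Rhobtb1, Trpm2 and Wwox were left out for sharing 1 base with a ChIP-seq peak.

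Many members lay near ChIP-seq peaks without touching them. The next ChIP-seq peak was within 1 kb of 11.7% of members, within 10 kb of 47.7% (95% Wilson interval 47.1 to 48.3%) and over 100 kb away from 14.4%, with a median gap of 11295 bp. Intergenic CUT&RUN-only peaks had almost the same spacing, with 46.0% within 10 kb and a median gap of 12446 bp. Of the members, 32.6% had a shared CUT&RUN peak within 10 kb.

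Of the 5 members of highest fold enrichment, which were 218 to 1363 bp wide, 4 sat at the 5′ end of a gene. Here and below, a peak at the 5′ end is one that overlaps the end or the 1 kb on either side. Such a peak need not cover the end itself. The highest, with a fold of 8.04 and a −log10 q of 13.2, was a 218 bp peak at the 5′ end of AW822073 (chr10:58225367-58225584), 674 bp from a ChIP-seq peak. The next was a 948 bp peak with a fold of 5.31 at the 5′ end of Igfbp6 (chr15:102144356-102145303), which encodes a binding protein of insulin-like growth factors. It lay 33 bp from a ChIP-seq peak. Of the others, 1 lay over an exon of St6galnac1, a sialyltransferase (fold 4.99), and 1 at the 5′ end of Vsig2 (fold 4.86). Another (fold 4.89), within the span of 4930455D15Rik, lay inside the epithelial cytokine gene Tslp. It began within 1 kb of the 5′ end of Tslp without covering that end. Vsig2 was the one host that passed the filter on low counts, and the others were not tested. Igfbp6 held 2 and 4 counts with auxin and 3 and 10 counts without auxin, Tslp held 1 and 1 with auxin and 0 and 0 without auxin, and St6galnac1 held 0 counts in all 4 libraries. Vsig2 stood at 0.590 and 1.13 CPM (counts scaled to library size with TMM factors) with auxin and at 1.48 and 1.22 CPM without auxin, and was not called (edgeR adjusted p = 0.278).

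After that of 5330417C22Rik, the widest members were those of Kalrn (4983 bp), of Ccdc19 and 4933439K11Rik (4982 bp), of Cdh13 (4962 bp), a cadherin without a cytoplasmic tail, and of Plxna4 (4959 bp), a semaphorin receptor subunit. The folds of these 5 peaks were 2.99 to 3.31, and none of them was among the 5 of highest fold.

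Members were spread over gene bodies rather than gathered at starts. Only 7.09% (1753 peaks; 95% Wilson interval 6.78 to 7.42%) overlapped a gene's 5′ end or the 1 kb flanking it, against 18.3% (17.4 to 19.2%) of shared genic peaks. A further 20.6% touched an exon elsewhere and 72.3% lay in introns only, against 34.2% and 47.5% of shared genic peaks. The rule asked for gene overlap but not for a place within the gene. Because shared peaks were wider, midpoints were compared as well. Member midpoints fell in an exon in 9.53% of cases (9.17 to 9.91%), where exons make up 8.09% of the merged gene spans, and in a 5′ window in 4.31% (4.06 to 4.57%), where such windows make up 3.30%. Shared midpoints fell in exons in 15.2% (14.4 to 16.1%) and in 5′ windows in 8.32% (7.69 to 8.99%). Placed by midpoint, both sets stood above the layout of gene space in exons and 5′ windows, members by less than shared peaks.

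**Figure D2:**
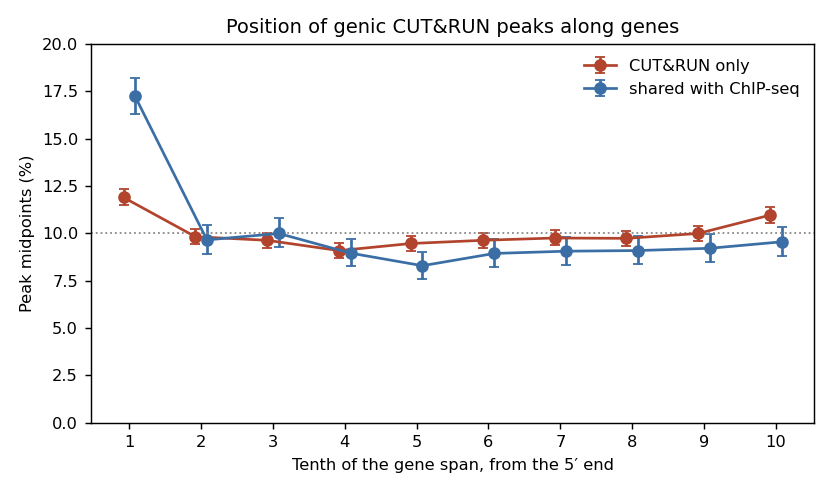
Percentage of peak midpoints in each decile of the gene span, counted from the 5′ end, for CUT&RUN-only peaks (red) and peaks shared with ChIP-seq (blue), with 95% Wilson intervals. Only genes of 10 kb or more that alone hold the midpoint are used, and the dotted line marks 10%. The decile at the 5′ end held 11.9% of the 22099 CUT&RUN-only midpoints and 17.2% of the 5872 shared ones.

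Along genes of 10 kb or more, the decile nearest the 5′ end held 11.9% of member midpoints (11.5 to 12.3%) and the decile at the 3′ end 11% (10.6 to 11.4%), while each decile between held 9.09 to 10.0%. Shared peaks had 17.2% (16.3 to 18.2%) in the decile at the 5′ end and 9.55% in the decile at the 3′ end. Members that did sit at a 5′ window were wider and stronger than intronic ones, with a median width of 957 bp and a median −log10 q of 1.56, against 688 bp and 1.35.

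The regions were unevenly spread over chromosomes. Members numbered 31.6 per Mb of merged gene span on chromosome 11 and 30.0 per Mb on chromosome 9, against 13.3 per Mb on chromosome 14 and 2.25 per Mb on chromosome X. The X chromosome carried 108 members, 3 shared genic peaks and 49 ChIP-seq peaks in all, so both assays listed few peaks there. Shared genic peaks had another order, with 13.6 per Mb on chromosome 8 and 12.8 per Mb on chromosome 11, and members made up 63.2% of genic peaks under 5000 bp on chromosome 8, the lowest share of any chromosome, against 85.1% on chromosome 13.

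The members were held by 6380 genes, 19.4% of those placed, and were concentrated in few of them. Of the hosts, 2738 held 1 member, and 608 held 10 or more and with them 49.0% of all members. Hosts were long, with a median span of 32.0 kb against 5.01 kb for other placed genes, and across the 6380 hosts the number of members rose with span (Spearman correlation 0.62, a description over genes of the same library, with no test). Of the hosts, 55.0% also had a ChIP-seq peak somewhere in the span and 2871 had none.

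The most members lay over Fgfr2, a fibroblast growth factor receptor, with 154. Gm20388 followed with 131 and Camta1, a calmodulin-binding transcription activator, with 94. The annotation used by the authors gives Fgfr2 a span of 2961 kb and Gm20388 one of 4435 kb, and of their members 103 and 59 lay over no other gene. Genes with spans over 1 Mb accounted alone for 1190 members, 4.81% of the total. Per 100 kb of span, among genes with at least 10 members, the densest were Ldb3 (22.6), a Z-disc protein gene of muscle, Cdhr3 (22.0), 4931429I11Rik (21.7) and Bcl11a (20.8), a zinc finger repressor of neural and blood lineages. Pax8, a thyroid and kidney transcription factor, had 11 members in 55.0 kb and Bcl11a 20 in 96.1 kb with no shared peak.

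Genes with member peaks were mostly silent or weakly expressed in cells without auxin. Levels are given as RPKM, which is CPM divided by the exon length in kb, averaged over the 2 libraries without auxin. Member peaks numbered 30.2 per Mb of gene span in genes at 0 RPKM, 37.5 above 0 and below 0.1 RPKM, 38.1 at 0.1 to 1 RPKM, 13.5 at 1 to 10 RPKM, 1.89 at 10 to 50 RPKM and 0.651 at 50 RPKM or more. Density was thus highest in weakly expressed genes, not in genes at 0, and dropped steeply beyond 1 RPKM. Shared peaks of any width had a flatter low end, with 13.1, 13.5 and 13.9 per Mb in the same 3 lowest ranges, then 3.06, 0.505 and 0.536 per Mb.

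**Figure D3:**
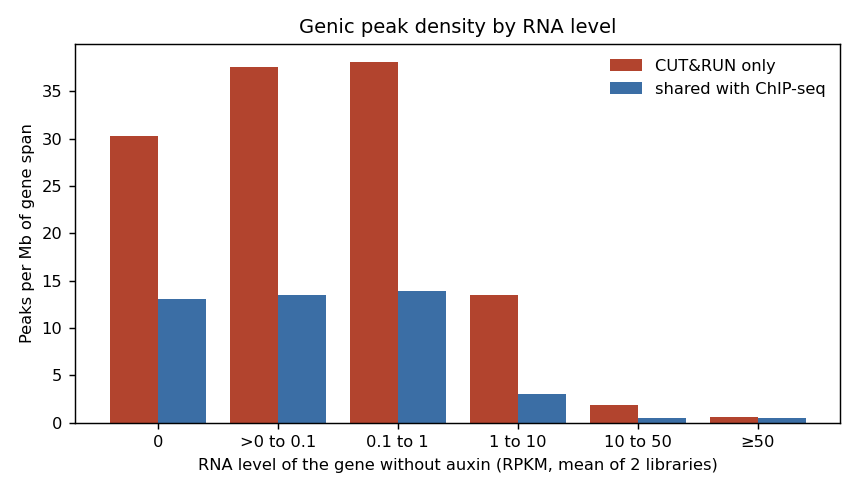
Peaks per Mb of gene span for CUT&RUN-only peaks (red, left of each pair) and peaks shared with ChIP-seq (blue) in 6 ranges of RNA level without auxin (RPKM, mean of 2 libraries). CUT&RUN-only density was 38.1 per Mb at 0.1 to 1 RPKM and 0.651 per Mb at 50 RPKM or more.

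The 1877 genes with a member in the 5′ window were quieter than those with members in the body only. In the libraries without auxin, 58.2% and 56.5% of them had 0 counts, and 7.88% and 8.42% reached 1 RPKM. Genes with a shared peak at the 5′ end and no member were alike, with 58.4% and 56.6% at 0 counts and 7.29% and 7.48% reaching 1 RPKM. Genes with members in the body only (4648) were less silent, with 33.4% and 31.7% at 0 counts, and 21.9% and 22.4% reached 1 RPKM. Genes with neither a member nor a shared peak at the 5′ end can still hold shared peaks in the body. They were more often silent than the body class, with 49.1% and 48.4% at 0 counts, yet 39.0% and 39.2% of them reached 1 RPKM. Their median exon length was 1404 bp, against 3610.5 bp in the body class. The part of gene length in these shares was not tested. The 2 libraries without auxin gave the same order of classes.

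Among protein-coding genes the share with a member at the 5′ end was highest one range lower than peak density. It was 8.51% (95% Wilson interval 7.74 to 9.34%) at 0 RPKM, 15.9% (14.4 to 17.5%) above 0 and below 0.1 RPKM, 10.9% (9.78 to 12.1%) at 0.1 to 1 RPKM, 2.43% at 1 to 10 RPKM, 0.372% at 10 to 50 RPKM and 0.0840% (1 of 1191 genes) at 50 RPKM or more.

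Gene lists differed widely in how many genes had a member in the span or 5′ window. Members lay over 27 of 36 voltage-gated calcium and sodium channel genes, 32 of 44 collagens, 27 of 39 voltage-gated potassium channels, 28 of 41 glutamate and GABA receptors, 30 of 45 cadherins outside the protocadherin clusters and 41 of 68 axon guidance genes, against 19.8% of all placed genes. They lay over none of 76 cytosolic ribosomal protein genes and none of 17 genes typical of 2-cell-like cells. Long genes can meet more peaks, so the lists were also read per Mb of gene span, where all placed genes had 23.9 members per Mb. Developmental transcription factors had 57.0 per Mb, calcium and sodium channels 59.3, collagens 52.8, Wnt ligands and Frizzled receptors 44.4, potassium channels 31.6 and axon guidance genes 29.0. Cadherins (24.4) and glutamate and GABA receptors (22.2) were near the value of all genes. These lists were not tested for enrichment.

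Of 117 developmental transcription factors, 14 had a member at the 5′ end and 42 in the body only. Runx1, a regulator of blood formation, held 41 members, and Runx2, a regulator of bone formation, 29 with 1 or more at the 5′ end. Lmx1a, a factor of dopaminergic neurons, held 27. Runx2 had 0.00 and 0.00672 RPKM with auxin and 0.00 RPKM in both libraries without auxin, while Runx1 had 0.200 and 0.242 RPKM with auxin and 0.238 and 0.294 RPKM without auxin. Among the other factors with a member at the 5′ end were Gata6 and Foxa2, both of endoderm, Emx2, of cortex and kidney, and Nkx2-2 and Neurod1, both of neurons and pancreas. A shared peak stood at the 5′ end of 50 of the 117 factors.

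Hosts of many members in the other lists included Maml3, a coactivator of Notch, with 62, Ephb1, an ephrin receptor, with 51, Plxna4 with 49, Slit3, a ligand of Robo receptors, with 48, Cdh23, a cadherin of hair cells, with 47, Cacna1d, an L-type calcium channel, with 46, and Grik4, a kainate receptor subunit, with 42. Cacna1d had 0.00 RPKM in all 4 libraries. Among 39 Polycomb complex genes 6 held members, and 38 of the 47 peaks lay over Auts2, a PRC1 component, which was expressed at 2.01 and 1.82 RPKM with auxin and 1.94 and 1.78 RPKM without auxin. These genes were picked by their count of members after the values were seen.

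RNA with and without auxin was not used to choose the peaks, so it could be read against all genes. Of 13522 genes tested with edgeR, 1759 were higher with auxin (13%) and 1964 were lower (14.5%). Of the 1877 genes with a member at the 5′ end, 402 passed the filter on low counts, and 68 of these were higher (16.9%, 95% Wilson interval 13.6 to 20.9%) and 27 lower (6.72%, 4.66 to 9.60%). Of the 4648 genes with members in the body only, 2085 passed the filter, and 437 were higher (21.0%, 19.3 to 22.8%) and 128 lower (6.14%, 5.19 to 7.25%). Both classes had a median log2 fold change of 0.20, against 0.01 over all tested genes. Most genes of each class did not pass the filter, so these counts are those of a minority. The filter used the groups, so a gene could pass on its auxin libraries alone, or on those without auxin alone. The part of this in the shares was not tested. With DESeq2, 27 genes of the 5′ class were higher (6.72%) and 11 lower (2.74%), and 212 of the body class were higher (10.2%) and 72 lower (3.45%), against 945 higher (6.99%) and 1369 lower (10.1%) over all genes. The higher share of the 5′ class was thus above that of all genes with edgeR and this filter, and not with DESeq2. When edgeR kept every gene with at least 1 read in any library, 84 of 1076 genes of the 5′ class were higher (7.81%). In that setting 522 of 3659 genes of the body class (14.3%) and 2029 of 19815 over all genes (10.2%) were higher. With CUT&RUN peaks of −log10 q of 2 or more and the main filter, the higher share of the 5′ class was 10.4% (10 of 96 genes) with edgeR. This too was below the share over all genes. The 27 lower calls of the 5′ class became 15 without auxin replicate 2 and 16 without replicate 1 lacking auxin, and leaving out that library gave 1257 lower over all genes.

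The share of higher calls was larger in both member classes than in genes with no such peak in each range of RNA level, and the differences were not tested. The calls were those of edgeR alone. Genes were split by mean CPM over all 4 libraries. At 1 to 5 CPM, 15.9% (11.5 to 21.6%) of genes with a member at the 5′ end and 16.2% (13.8 to 19%) of those with members in the body only were higher, against 9.90% (8.41 to 11.6%) of genes with neither a member nor a shared peak at the 5′ end. At 5 to 25 CPM these shares were 22.6% (15.3 to 32.1%) and 27.5% (24.5 to 30.8%), against 13% (11.8 to 14.3%). At 25 CPM or more they were 28.1% (15.6 to 45.4%) and 24.1% (19.7 to 29.2%), against 11.2% (10.4 to 12.0%). Under 1 CPM the 5′ class had 7.89% (3.67 to 16.2%) and the body class 12.2% (8.75 to 16.7%), against 5.76% (3.93 to 8.37%), so there the interval of the 5′ class spanned the other value. Over all placed genes the shares were 7.95% under 1 CPM, 12.7% at 1 to 5, 16.4% at 5 to 25 and 11.9% at 25 CPM or more. These lay within the interval of the 5′ class in each range below 25 CPM. They lay below the interval of the body class in every range.

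**Figure D4:**
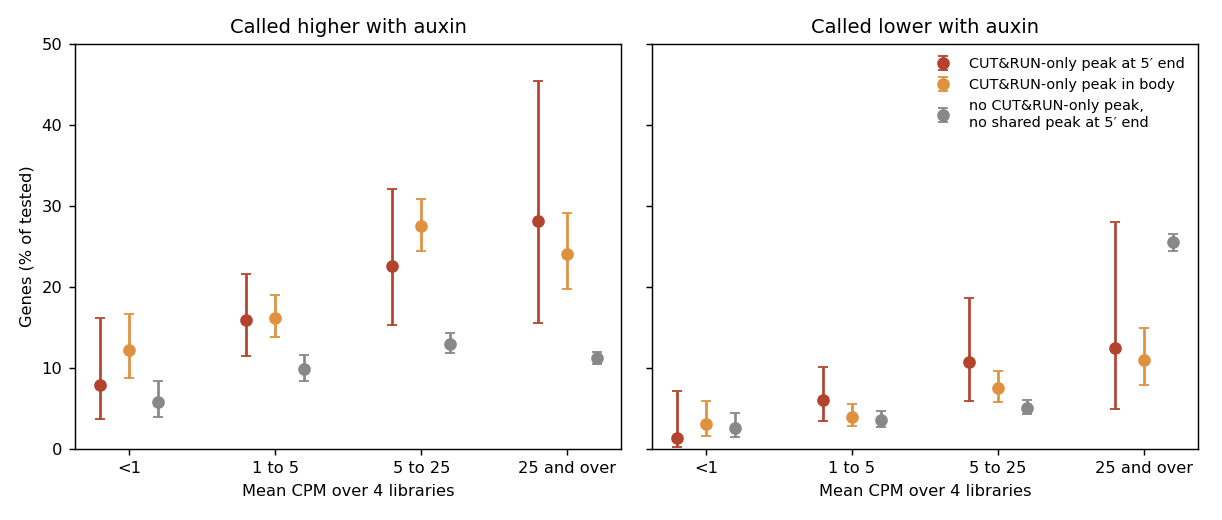
Percentage of tested genes called higher (left) or lower (right) with auxin, by mean CPM over the 4 libraries, for genes with a CUT&RUN-only peak at the 5′ end (red), in the body only (orange) and genes with neither that nor a shared peak at the 5′ end (grey). Bars are 95% Wilson intervals. Among genes at 5 to 25 CPM, 22.6%, 27.5% and 13% were higher in these classes.

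The share of lower calls was larger in both member classes than in genes with neither at 1 to 5 and 5 to 25 CPM, with overlapping intervals. It was smaller in both at 25 CPM or more. Under 1 CPM it was 1.32% (0.233 to 7.08%) in the 5′ class and 3.04% (1.55 to 5.89%) in the body class, against 2.53% (1.42 to 4.48%). At 1 to 5 CPM it was 5.97% (3.45 to 10.1%) in the 5′ class and 3.95% (2.78 to 5.59%) in the body class, against 3.52% (2.66 to 4.65%). At 5 to 25 CPM, 10.8% (5.95 to 18.7%) of 5′ member genes and 7.45% (5.78 to 9.55%) of body member genes were lower, against 5.09% (4.33 to 5.97%) of genes with neither. At 25 CPM or more the values were 12.5% (4.97 to 28.1%) and 10.9% (7.93 to 14.9%), against 25.5% (24.4 to 26.6%). Over all placed genes the lower shares were 2.41% under 1 CPM, 3.75% at 1 to 5, 5.80% at 5 to 25 and 24.7% at 25 CPM or more. Of the 6648 tested genes at 25 CPM or more, 32 had a member at the 5′ end and 311 in the body only. All placed genes at 1 to 5 CPM had a median log2 fold change of 0.20 and those at 25 CPM or more one of −0.06.

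The share of lower calls was smaller in member genes that had a ChIP-seq peak in the span or window. Of 193 tested genes with a member at the 5′ end and a ChIP-seq peak in the span or window, 35 were higher (18.1%, 13.3 to 24.2%) and 5 lower (2.59%, 1.11 to 5.92%). Of the 209 with no ChIP-seq peak there, 33 were higher (15.8%, 11.5 to 21.3%) and 22 lower (10.5%, 7.05 to 15.4%). In the body class, 22.9% were higher and 4.88% lower (3.81 to 6.21%) with a ChIP-seq peak, against 18.1% higher and 8.03% lower (6.38 to 10.1%) without one. Over all tested genes 13% were higher and 14.5% lower. The subsets were not matched for RNA level. Without auxin, 29.4% and 29.3% of body-class genes with no ChIP-seq peak reached 1 RPKM, against 17.4% and 18.2% of those with one. In the 5′ class these shares were 8.17% and 8.43%, against 7.45% and 8.40%. In either class, the intervals of the lower shares did not overlap between genes with and without a ChIP-seq peak. The differences themselves were not tested. Those of the higher shares did overlap. The split was made on the edgeR calls alone, and DESeq2 called 11 genes lower in the whole 5′ class. Genes with a shared peak at the 5′ end and no member had 33 higher (15.4%) and 7 lower (3.27%) of 214 tested.

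Among genes with a member at the 5′ end and no ChIP-seq peak in the span or window, 10 rises and 10 falls were named. These were the largest called ones for which both auxin libraries stood on the same side of both libraries without auxin. Several of their peaks there were near the lowest −log10 q of the list, 1.00. Those of Ddr2 (1.08), Rapgef5 (1.09), Hhip (1.16), Chrna9 (1.17), Lrrc8c (1.19) and Krtdap (1.20) were the weakest. Only those of Ncmap, Parm1, Sycp2l, Gmnc, Ripply3, Rasgrf2 and Nrg1 reached 2. Some, such as that of Parm1, overlapped the 1 kb beside the 5′ end without covering the end itself. Trpm6 had 1.62 and 1.66 CPM with auxin and 0.211 and 0.407 CPM without auxin, a rise of 2.37 on the log2 scale (SE 0.44, edgeR adjusted p = 0.00247), and its member peak lay 301 kb from the next ChIP-seq peak. Parm1, which encodes a mucin-like membrane protein, had 6.86 and 6.77 CPM with auxin and 2.39 and 3.12 CPM without auxin (log2 fold change 1.30, SE 0.21, edgeR adjusted p = 0.000982). Its peak (chr5:91518463-91519553) had a fold enrichment of 3.87, the highest of these 20 genes. Hhip had 5.01 and 5.52 CPM with auxin and 2.04 and 2.31 CPM without auxin (log2 fold change 1.28, SE 0.22, edgeR adjusted p = 0.00178). In these 3 genes the auxin libraries lay above both others without overlap, which the choice of genes required. Each call held under every alternative tried.

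Lrrc8c, a subunit of volume-regulated anion channels, had 4.13 and 3.92 CPM with auxin and 1.55 and 2.1 CPM without auxin (log2 fold change 1.13, SE 0.25, edgeR adjusted p = 0.00661). Krtdap, a secreted protein of keratinocytes, had 2.06 and 2.49 CPM with auxin and 0.562 and 0.949 CPM without auxin, and Ncmap, a protein of noncompact myelin, had 1.99 and 1.78 CPM with auxin and 0.632 and 0.678 CPM without auxin. Both passed the test by edgeR (adjusted p = 0.00664 and 0.00818) and missed it by DESeq2 (adjusted p = 0.0502 and 0.0900). Lrrc8c kept its call in each setting. The remaining 4 rises missed the threshold by DESeq2 as well (adjusted p = 0.0689 for Mansc1, 0.0571 for Ddr2, 0.115 for Sycp2l and 0.151 for Lbh) and lost the edgeR call when 1 library was left out. Mansc1 lost its call without auxin replicate 1 (edgeR adjusted p = 0.244) or without replicate 1 of the libraries lacking auxin (0.0705). Ddr2, a collagen receptor kinase, lost it without replicate 1 lacking auxin (0.0833), Sycp2l without auxin replicate 2 (0.102) or replicate 1 lacking auxin (0.139), and Lbh, a transcription cofactor, without auxin replicate 1 (0.0805) or replicate 2 lacking auxin (0.113).

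**Figure D5:**
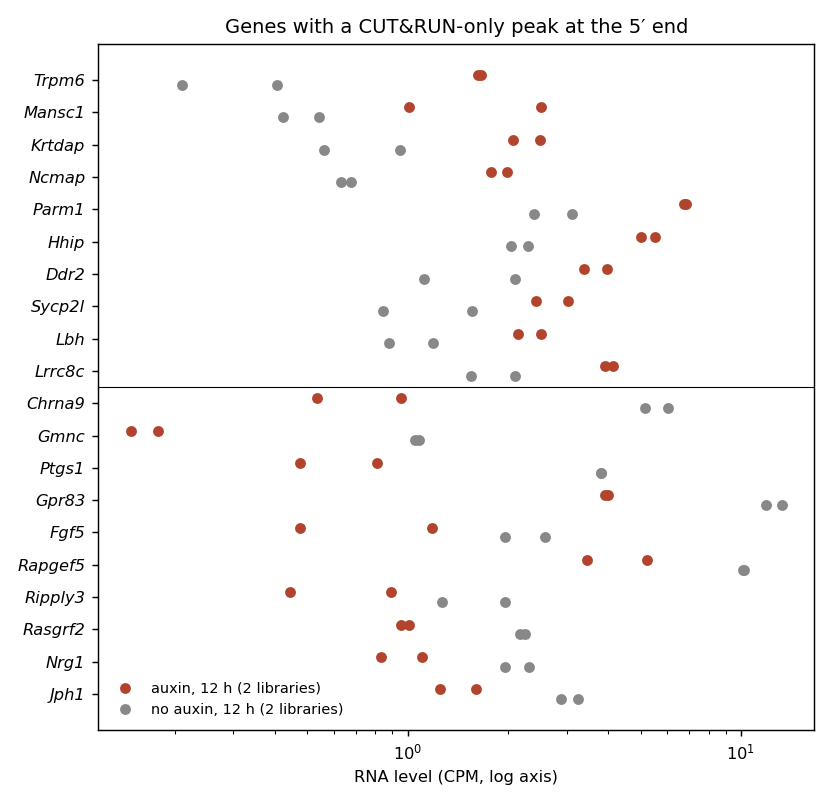
RNA level in CPM (log axis) in each library with auxin (red, upper point row of each gene) and without auxin (grey, lower point row) for 20 genes with a CUT&RUN-only peak at the 5′ end and no ChIP-seq peak in the span or window. The line separates the 10 largest rises from the 10 largest falls, chosen so that the groups do not overlap. Trpm6 had 1.62 and 1.66 CPM with auxin and 0.211 and 0.407 CPM without auxin.

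The 3 largest falls were larger in size than the largest rise. Chrna9, a nicotinic acetylcholine receptor subunit of hair cells, had 0.959 and 0.535 CPM with auxin and 6.04 and 5.15 CPM without auxin, a log2 fold change of −2.93 (SE 0.30, edgeR adjusted p = 6.66e-05). Gmnc, a coiled-coil regulator of multiciliated cells, had 0.147 and 0.178 CPM with auxin and 1.05 and 1.08 CPM without auxin (log2 fold change −2.64, SE 0.53, edgeR adjusted p = 0.00368). Ptgs1, the cyclooxygenase COX-1, had 0.811 and 0.475 CPM with auxin and 3.79 and 3.8 CPM without auxin (log2 fold change −2.58, SE 0.32, edgeR adjusted p = 0.000236). Chrna9 and Ptgs1 kept their calls under all 9 alternatives, and Gmnc under the 8 that gave it a value.

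Gpr83, a G protein-coupled receptor of brain and lymphocytes, had the highest level of the 20 genes without auxin, with 3.98 and 3.92 CPM with auxin and 13.3 and 11.9 CPM without auxin (log2 fold change −1.67, SE 0.16, edgeR adjusted p = 4.30e-05). Its member peak was 4751 bp wide (chr9:14859979-14864729) and 10.0 kb from the next ChIP-seq peak. Rapgef5, an exchange factor for Rap, had 5.24 and 3.44 CPM with auxin and 10.2 and 10.2 CPM without auxin (log2 fold change −1.25, SE 0.20, edgeR adjusted p = 0.000960). Both kept their calls under every alternative tried. The groups did not overlap, which the choice of genes required.

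Rasgrf2 had 0.959 and 1.01 CPM with auxin and 2.25 and 2.17 CPM without auxin (log2 fold change −1.16, SE 0.31, edgeR adjusted p = 0.0167), and its call was lost without any 1 library (edgeR adjusted p = 0.0584 and 0.0766 without auxin replicate 1 or 2, and 0.0741 and 0.0521 without replicate 1 or 2 lacking auxin). Fgf5, a growth factor that marks embryonic stem cells leaving the naive state, had 1.18 and 0.475 CPM with auxin and 1.97 and 2.58 CPM without auxin (log2 fold change −1.51, SE 0.40, edgeR adjusted p = 0.0163). Its call was lost without auxin replicate 2 (0.153) or replicate 2 lacking auxin (0.0681). Ripply3, a corepressor of T-box factors, lost its call without auxin replicate 1 (0.225) or replicate 2 lacking auxin (0.304), and with upper-quartile factors (0.0530). Nrg1, a ligand of ErbB receptors, lost it without auxin replicate 2 (0.169) or replicate 1 lacking auxin (0.122), and Jph1, a junctophilin of muscle, without auxin replicate 1 (0.0562) or replicate 2 lacking auxin (0.0559). With all libraries, DESeq2 called none of these 5 genes (adjusted p = 0.151 for Rasgrf2, 0.0777 for Fgf5, 0.225 for Ripply3, 0.168 for Nrg1 and 0.0997 for Jph1). Their values did not overlap between groups, which the choice of genes required.

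Genes with members in the body only were named for the 5 largest rises and the 5 largest falls without overlap of the groups, whether or not a ChIP-seq peak lay in the span or window. One did in all 5 rises, and among the falls in Rgs20 and Grin2b. Cyp1b1, a cytochrome P450, had 23.6 and 16.8 CPM with auxin and 0.632 and 0.542 CPM without auxin, and held 1 member of 228 bp (chr17:79712567-79712794) 0.851 kb from a ChIP-seq peak. Pdlim4, an actin-binding LIM protein, had 1.11 and 1.25 CPM with auxin and 0.140 and 0.203 CPM without auxin (log2 fold change 2.72, SE 0.52, edgeR adjusted p = 0.00285) and held 2 members. The T cell coreceptor gene Cd4 held 2 members and Mal, a membrane raft protein, 1. Cd4 had 3.02 and 5.70 CPM with auxin and 0.351 and 0.475 CPM without auxin, and Mal 4.42 and 3.27 CPM with auxin and 0.843 and 0.339 CPM without auxin. Sez6l, with 8 members, had 9 and 13 counts with auxin and 1 and 2 counts without auxin. Its call (edgeR adjusted p = 0.00969) was lost without replicate 1 or 2 of the libraries lacking auxin (0.115 and 0.0560).

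Among the falls, Soga3 had 3.69 and 3.8 CPM with auxin and 18.6 and 18.4 CPM without auxin (log2 fold change −2.30, SE 0.14, edgeR adjusted p = 1.96e-06). Its 1 member, 1652 bp wide (chr10:29196408-29198059), had a fold enrichment of 3.97 and lay 336 kb from the next ChIP-seq peak. Epha1, an ephrin receptor, had 2.43 and 1.96 CPM with auxin and 9.90 and 9.49 CPM without auxin (log2 fold change −2.15, SE 0.20, edgeR adjusted p = 2.81e-05) with 3 members. Spry4, an inhibitor of growth factor signalling, held 1 member of 811 bp and had 1.03 and 1.37 CPM with auxin and 68.1 and 56.4 CPM without auxin. Rgs20, a regulator of G protein signalling, had 1 and 2 counts with auxin and 13 and 13 counts without auxin. Grin2b, an NMDA receptor subunit with 29 members, had 1 and 3 counts with auxin and 12 and 11 counts without auxin, and its call (edgeR adjusted p = 0.0102) was lost without auxin replicate 1 (0.0692) or without replicate 1 or 2 lacking auxin (0.0886 and 0.0521).

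Fgfr2, the gene with the most members, rose with auxin, at 9.36 and 7.36 CPM with auxin and 2.6 and 3.53 CPM without auxin (log2 fold change 1.43, SE 0.21, edgeR adjusted p = 0.000714). Camta1 did not pass the test, at 16.5 and 15.1 CPM with auxin and 18 and 15.4 CPM without auxin (log2 fold change −0.08, SE 0.12, edgeR adjusted p = 0.673), and Gm20388 had 0 counts in all 4 libraries.

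Within the gene lists, member genes moved both ways, and the counts stand against 13% higher and 14.5% lower over all tested genes. Of 56 developmental transcription factors with a member 30 were tested, of which 8 rose and 2 fell, with a median log2 fold change of 0.28. In the whole list 17 rose and 10 fell of 72 tested. DESeq2 called 7 of the 30. Gata3, a factor of trophoblast and T cells, had 15.0 and 17.7 CPM with auxin and 6.67 and 8.48 CPM without auxin (log2 fold change 1.11, SE 0.15, edgeR adjusted p = 0.000458). Tbx15, a T-box factor of skeleton and skin, had 4.20 and 6.59 CPM with auxin and 2.04 and 1.76 CPM without auxin (log2 fold change 1.52, SE 0.28, edgeR adjusted p = 0.00222). Bcl11a, one of the densest hosts, had 1.47 and 2.08 CPM with auxin and 4.29 and 4.20 CPM without auxin (log2 fold change −1.23, SE 0.25, edgeR adjusted p = 0.00428), and Zfpm2, a cofactor of GATA factors, had a log2 fold change of −1.01 (SE 0.18, edgeR adjusted p = 0.00184).

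Of 33 tested axon guidance genes with a member, 5 rose and 6 fell, with a median log2 fold change of 0.07, and DESeq2 called 6 of the 33. These shares were near those over all genes, and in the whole list 16 rose and 8 fell of 57 tested. Efnb1, an ephrin ligand, had 22.0 and 27.6 CPM with auxin and 7.31 and 10.2 CPM without auxin (log2 fold change 1.5, SE 0.16, edgeR adjusted p = 9.42e-05), and Slit1, a Robo ligand with 17 members, rose by 1.6 (SE 0.34, edgeR adjusted p = 0.00503). Robo4, a receptor of vessel endothelium, had 2.95 and 2.61 CPM with auxin and 7.66 and 9.42 CPM without auxin (log2 fold change −1.62, SE 0.20, edgeR adjusted p = 0.000216). Of 19 tested BMP and TGF-beta genes with a member, 4 rose and 2 fell. Tgfbr2, a TGF-beta receptor with a member at the 5′ end, had 9.36 and 9.74 CPM with auxin and 5.41 and 4.95 CPM without auxin (log2 fold change 0.88, SE 0.16, edgeR adjusted p = 0.00220), and Tgfbr3 rose by 0.70 (SE 0.11, edgeR adjusted p = 0.000883). Inhbb, an activin subunit, had a log2 fold change of −0.72 (SE 0.14, edgeR adjusted p = 0.00306).

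Few ion channel and receptor genes with a member were tested. Of 10 tested calcium and sodium channel genes with a member 1 rose and 1 fell. Of 11 potassium channel genes 1 rose, and of 13 glutamate and GABA receptor genes 1 rose and 2 fell. The channel gene that fell, Cacna2d1, was not called by DESeq2. The receptor genes that fell, Grin2b and Grik3, each lost the call when certain single libraries were left out. Cacna1g, a T-type calcium channel, had 2.73 and 2.91 CPM with auxin and 0.913 and 0.814 CPM without auxin (log2 fold change 1.70, SE 0.31, edgeR adjusted p = 0.00210). Grm4, a metabotropic glutamate receptor with 9 members, had 9.07 and 6.36 CPM with auxin and 3.16 and 2.31 CPM without auxin (log2 fold change 1.48, SE 0.24, edgeR adjusted p = 0.00118). Of 15 tested collagens with a member 1 rose, Col2a1 of cartilage, with 9.88 and 10.4 CPM with auxin and 2.25 and 3.19 CPM without auxin (log2 fold change 1.89, SE 0.20, edgeR adjusted p = 7.23e-05).

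Of 8 tested imprinted genes with a member 2 fell, Grb10, an adaptor that restrains growth (log2 fold change −0.62, SE 0.06, edgeR adjusted p = 5.19e-05), and Trappc9 (−0.63, SE 0.11, adjusted p = 0.00195). Of 6 tested Polycomb complex genes with a member, Bmi1, a PRC1 subunit, rose by 0.63 (SE 0.10, edgeR adjusted p = 0.00119) and Kdm2b, which brings PRC1 to CpG islands, had a log2 fold change of −0.43 (SE 0.05, edgeR adjusted p = 0.000183). Of 5 tested Notch pathway genes with a member 2 rose. Notch1, with a member at the 5′ end, had 107 and 113 CPM with auxin and 83.2 and 89.4 CPM without auxin (log2 fold change 0.35, SE 0.07, edgeR adjusted p = 0.00265). The other rise, of Maml2, was not called by DESeq2.

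Of 13 tested cadherins with a member 1 rose and 2 fell, and DESeq2 called 1 of the 13. The fall of Pcdh1 lost its call with DESeq2 and when any 1 library was left out. Cdh4, with 20 members, had 6.56 and 8.08 CPM with auxin and 11.9 and 13.2 CPM without auxin (log2 fold change −0.77, SE 0.15, edgeR adjusted p = 0.00371). Fat2, an atypical cadherin, rose by 1.66 (SE 0.36, edgeR adjusted p = 0.00604) and missed the threshold by DESeq2 (adjusted p = 0.0640). Of 13 tested Wnt ligands and Frizzled receptors with a member, Wnt3 and Fzd1 rose by edgeR and were not called by DESeq2 (adjusted p = 0.0927 and 0.182). Leaving out either of 2 libraries ended the call of Wnt3, and any of 3 that of Fzd1. Without replicate 1 lacking auxin the edgeR adjusted p was 0.186 for Wnt3 and 0.285 for Fzd1. Of 8 tested germline genes with a member, edgeR and DESeq2 each called 0, and 2 had an unadjusted edgeR p under 0.05.

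The RNA libraries held 13353446 and 16046290 counts with auxin and 14789851 and 15183126 counts without auxin. All 10 markers of embryonic stem cells stood at 10 CPM or more in every library, with 1 called higher and 7 lower with auxin by edgeR. The 10 fibroblast markers summed to 20.5 and 26.4 CPM with auxin and 11.4 and 13.8 CPM without auxin, and 2 of the 5 tested, Pdgfra and Pdgfrb, were called higher by edgeR and neither by DESeq2. Postn, S100a4, Lum and Twist2 held at most 1 count in any library, while Pdgfrb held 122 and 256 counts with auxin and 45 and 85 counts without auxin. The 5 trophectoderm markers summed to 117 and 124 CPM with auxin and 70.8 and 79.8 CPM without auxin, with Elf5 at 0 counts throughout, and the 5 endoderm markers to 10.8 and 13.5 CPM with auxin and 8.57 and 9.09 CPM without auxin. The 5 neural progenitor markers summed to 81.6 and 74.5 CPM with auxin and 88.5 and 77.8 CPM without auxin, and the 4 mesoderm markers to 33.8 and 33.4 CPM with auxin and 65.1 and 67.6 CPM without auxin. Within that list, Eomes was called lower (262 and 365 counts with auxin, 799 and 859 counts without auxin) and T higher (192 and 189 counts with auxin, 125 and 129 counts without auxin). The fibroblast, trophectoderm and endoderm sums were thus higher and the mesoderm sum lower in both auxin libraries while the neural sums overlapped. The part of these cells in the changes of member genes was not tested. In bulk RNA, fewer cells of a type and less RNA per cell cannot be told apart.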

How the data were processed

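Per the file headers, the authors counted fragments over the exons of each gene name on the reverse strand with featureCounts 1.6.3, and the deposited counts are raw. The submitters' processing notes name STAR 2.6.1d, Bowtie2 2.4.1, MACS2 2.1.1 and the builds mm10 and dm6. Each deposited broad peak carries a score (not used further), an enrichment as a fold, and −log10 values of p and q, all set by the authors' caller on 1 sample with nothing pooled. No label or header names the caller's control or cutoff, and the depth of the chromatin libraries is unknown.

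Peaks overlapped when they shared 1 base. A gene's span ran from its lowest exon start to its highest exon end, and its 5′ end was taken at the outer edge, which need not be the start in use. Shares carry 95% Wilson intervals (scipy 1.17.1), which cover counting error only. Counts were tested with edgeR 4.0.16 (TMM, filterByExpr, quasi-likelihood F test, two-sided, Benjamini-Hochberg over 13522 genes, threshold 0.05), with no block for replicate number, and checked on simulated data. DESeq2 1.42.0 was an alternative. No label says that the replicates were separate cultures, so p-values cover the spread among the libraries alone, possibly technical. Counts of replicates differed beyond sampling (chi-square over degrees of freedom, 12.0 with auxin and 4.08 without auxin). Of the 33006 gene rows, 38 were not singly placed and host no peak here. Member peaks and the 21 gene lists were chosen with earlier results of these data known. Named genes are the largest calls with groups that do not overlap, up to 2 genes per list and direction by smallest p, and the strongest, widest and most numerous peaks.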

Additional observations from a re-analysis of the deposited data

How the results depend on the processing

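The RNA values rest on 2 libraries a group and the peak values on 1 sample an assay. None of the 63 named called genes reversed under the alternatives. Of these genes 39 kept the call under every alternative and 24 lost it under at least 1, of which 20 did so with DESeq2. The causes were not tested.

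The number of member peaks was 3229 when CUT&RUN peaks needed a −log10 q of 2, against 24715. The share at a 5′ window then was 12.1% and the share over an exon 35.2%. These 2 shares were 6.67% and 25.1% when a ChIP-seq peak within 1 kb also removed a peak, 9.34% and 30.8% when it had to cover at least 50% of it, and 8.20% and 28.7% with ChIP-seq peaks of −log10 q of 2 or more. The exon share was 25.0% under 3000 bp and, in an alternative chosen after seeing the data, 27.1% with gene spans up to 1 Mb.

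With DESeq2, 945 genes were higher over all tested genes, and higher and lower calls were 27 and 11 for members at the 5′ end and 212 and 72 for members in the body only. With peaks of −log10 q of 2, these were 10 and 6 (of 96 tested) and 170 and 56 (of 811). With a 5′ window of 2 kb, the 5′ class had 114 and 44. Leaving out 1 library gave 1225 to 1705 higher and 1257 to 1914 lower over all genes, 47 to 63 and 15 to 19 in the 5′ class, and 297 to 429 and 92 to 122 in the body class. The lowest value for falls in the 5′ class was without auxin replicate 2.

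Same-numbered libraries of the groups deviated together with a correlation of 0.227 over 13522 genes, and no label says that a number pairs them. With the replicate number as a block, 2972 genes were higher and 3177 lower over all genes, 100 and 39 in the 5′ class, and 673 and 220 in the body class.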
